A study of Mus musculus with 15 samples.

Results

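Mouse embryonic fibroblasts with 1 intact copy of Actb, the gene of cytoplasmic beta-actin, were compared with wild-type fibroblasts after both had spent 14 days in bone-forming medium. The comparison takes 6 of the 15 libraries of the series, 3 heterozygous (HET) and 3 wild-type (WT), chosen by the genotype and day in their labels. It covers 15296 genes with enough counts to test, of 46603 listed. All cells were BALB/c fibroblasts from embryos labelled as 10.5 days old. Confluent cultures on Matrigel were moved to OsteoMax-XF, a commercial osteogenic medium, supplemented with dexamethasone, a synthetic glucocorticoid, and forskolin, which raises cyclic AMP. Every group of the series received this treatment, and the labels call the resulting cells chemically reprogrammed osteoblasts. HET cells are labelled beta-actin+/-, and WT cells beta-actin+/+. The labels describe neither the disrupted allele nor the number of embryos behind a group, and they do not say that the 3 libraries of a group came from separate cultures. P-values of single genes therefore measure only the spread between libraries of a group, which may be technical. That spread was estimated over all 5 groups of the series and not from the 6 libraries alone. The genotype cannot be told apart from the embryo or culture of origin. Values of beta-actin-/- cells at day 14 (KO) and of WT cells at day 4 are given in a few places beside those of HET and WT. KO and HET were compared with the same 3 WT libraries, so their differences from WT are not independent.

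Beta-actin is the most abundant actin of most non-muscle cells. It polymerises into the filaments that shape the cell, drive its movement and connect it to the matrix, and a pool of it enters the nucleus as part of chromatin-remodelling complexes. Cells also sense the balance of free and filamentous actin: free actin holds the coactivators of the transcription factor SRF in the cytoplasm, and SRF in turn drives many actin and actin-binding genes. Mice without beta-actin die as embryos, whereas mice with 1 intact copy are viable, and gamma-actin, encoded by Actg1, can take over part of its work.

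The 6 libraries held 19.9 to 22.2 M reads counted in genes. HET library 2 stood apart. HET libraries 1 and 3 differed by 2.89 times counting noise (chi-square per degree of freedom over genes), whereas HET library 2 differed from them by 50.1 and 50.4 times. Pairs of WT libraries differed by 5.02 to 18.6 times. The distance of HET library 2 followed the length of the genes. In the class of shortest genes, with a median exon length of 1591 bases, HET library 2 lay 0.15 above the WT mean on the log2 scale, and HET libraries 1 and 3 lay at -0.21 and -0.18. In the class of longest genes, with a median of 9802 bases, the order turned, with HET library 2 at -0.075 and HET libraries 1 and 3 at 0.255 and 0.25. There HET libraries 1 and 3 lay further from the WT mean than HET library 2. WT libraries differed by length too: WT library 1 ran from -0.103 in the shortest class to 0.112 in the longest, and WT library 3 from 0.095 to -0.09. The share of genes called higher in HET rose from 22.5% in the shortest class to 41.5% in the longest, and from 19.9% to 56.2% without HET library 2. The share called lower went from 31.1% to 21.3%, and from 44.6% to 21% without it. Leaving HET library 2 out thus made the dependence of calls on length steeper. Where leaving this library out ended the call of a named gene or moved a value by over 1.5 times, this is mostly given beside the results that follow. Smaller shifts in the counts of gene lists are not given there. In the Wnt pathway, for example, 23 genes were called lower with this library and 21 without it, and in the cyclic AMP response 13 and 11.

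**Figure D1:**
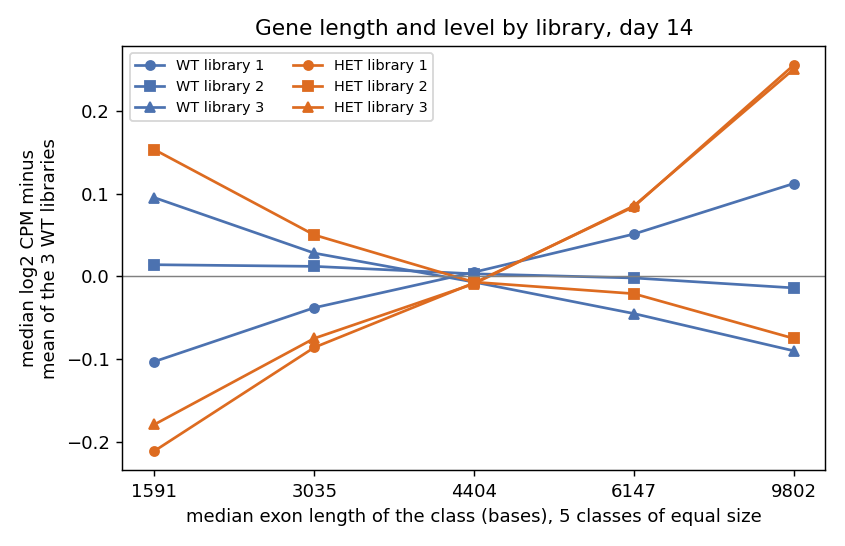
Median log2 level of genes in 5 classes of exon length (x axis, median length of the class in bases) relative to the mean of the WT libraries, for each WT (blue) and HET (orange) library. HET libraries 1 and 3 run from -0.21 and -0.18 in short genes to 0.255 and 0.25 in long genes, and HET library 2 runs the other way, from 0.15 to -0.075. WT library 1 runs from -0.103 to 0.112 and WT library 3 from 0.095 to -0.09.

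Actb mRNA in HET cells was close to the level that loss of 1 of its copies would leave, and gamma-actin and smooth muscle alpha-actin mRNAs were higher. Actb (chromosome 5, 142903115 to 142906754, GRCm38) stood at 2947, 2974 and 3067 CPM (read counts scaled to the size of the library) in WT libraries 1 to 3 and at 1488, 1642 and 1437 CPM in HET libraries 1 to 3. Every HET library lay below every WT library, and the fitted HET level was 50.8% of WT (95% interval 47.3 to 54.6). On the log2 scale the difference was -0.98, and -0.80 with the chromosome medians set equal, a setting described with the chromosomes. The block of 49 neighbouring genes on chromosome 5 that spans Actb had a median log2 difference of -0.348. Counts per gene do not tell the intact allele from the disrupted one. Actg1 (chromosome 11, 120345690 to 120348542) was at 723, 855 and 858 CPM in WT and 1179, 1636 and 1164 CPM in HET. The groups did not overlap, and HET library 2 was the highest. The log2 difference was 0.71 ± 0.10 (SE, n = 3 against 3, edgeR adjusted p 2.1e-05), and 0.53 without HET library 2. Acta2, the alpha-actin of smooth muscle and of contractile fibroblasts, was at 25.1, 25.9 and 26.6 CPM in WT and 72, 83.4 and 69.5 CPM in HET, a log2 difference of 1.53 ± 0.07 (edgeR adjusted p 7.05e-11). The other 3 actins of muscle, Acta1, Actc1 and Actg2, had at most 8 counts summed over the libraries of either group.

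The higher Actg1 and Acta2 levels did not bring the summed actin mRNA to that of WT. The 6 actins together took 3695, 3855 and 3952 CPM in WT and 2739, 3361 and 2671 CPM in HET, a ratio of 0.763. Measured per kb of exon, so that genes can be compared, the sum was 1436 ± 49 CPM per kb in WT and 1101 ± 143 in HET (SD, n = 3). Actb supplied 78.2% of actin CPM in WT and 52.3% in HET, and Actg1 21.2% and 45.1%. In KO cells of the same day the means were 44.7 CPM for Actb, 2494 for Actg1 and 489 for Acta2. For all 3 genes the HET mean lay between those of WT and KO.

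**Figure D2:**
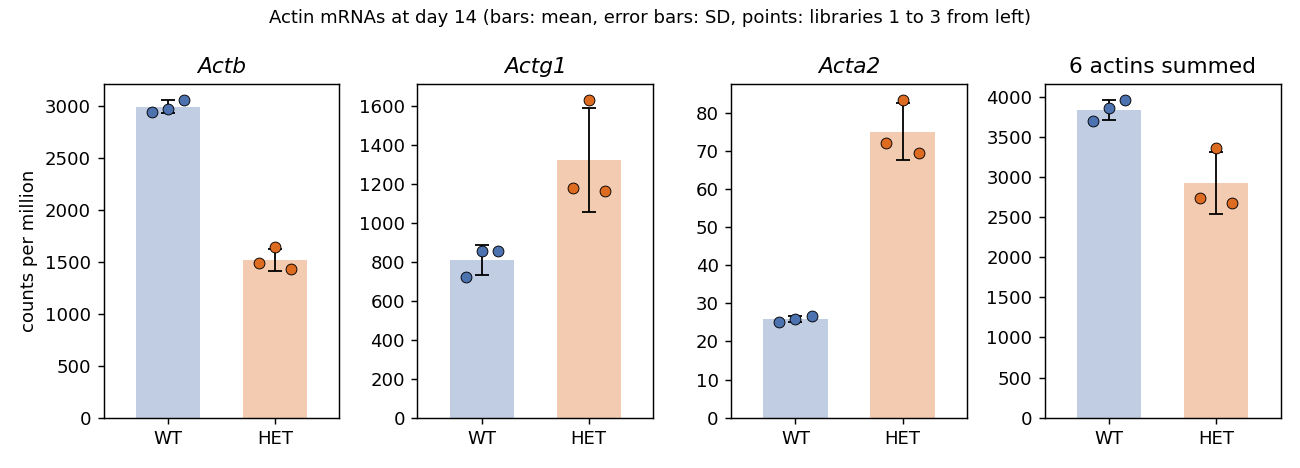
CPM of Actb, Actg1, Acta2 and the sum of 6 actins in 3 WT and 3 HET libraries (points, in order of library number), with mean (bar) and SD (error bar). Each y axis has its own scale and starts at 0. No HET point overlaps the WT points in any panel, and HET library 2 is the highest HET point in all 4.

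Genes whose products bind, nucleate or bundle actin moved in both directions, and most of the moves were small. Of 37 tested, 15 were called higher and 10 lower, 2 and 3 of them by at least 2-fold. These counts are to be read against the background of this comparison: 58.3% of all tested genes passed the test, 28.3% higher and 29.9% lower in HET, and 7.33% and 11.5% did so with at least a 2-fold change. The 5 members past 2-fold were the formin Fmnl2 and the crosslinker Actn1, which rose by 1.44 and 1.05 (log2), and the myosin Myh14, profilin Pfn2 and coronin Coro1a, which fell by 3.48, 2.97 and 1.22. The most abundant member was cofilin, Cfl1, which severs filaments. It was at 1134, 1299 and 1326 CPM in WT and 823, 1086 and 815 CPM in HET, and its call as lower ended with the chromosome medians set equal. The bundling protein fascin, Fscn1 (chromosome 5, 142960343 to 142973185), fell from 653, 606 and 636 CPM to 340, 335 and 344 CPM. Subunits of the Arp2/3 complex, which branches filaments, went both ways: Actr3 rose from a mean of 282 to 462 CPM and Arpc4 fell from 105 to 76.1 CPM. Of 21 SRF targets and coactivators, 5 rose and 12 fell, with a median log2 difference of -0.25 against -0.02 for all tested genes. Thbs1, Fhl1 and Tgfb1i1 fell by 2.09, 1.65 and 1.64, and Ccn2, Fhl2 and Zyx rose by 1.20, 1.05 and 0.83. Srf itself was at 90.6 CPM in WT and 93.9 CPM in HET and did not pass the test. Of 15 tubulins, 9 fell and 5 rose. With the chromosome medians set equal, a setting described with the chromosomes, 3 were called higher.

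Over all genes, 8910 of 15296 passed the test, 4330 higher and 4580 lower in HET. A fit of the 6 libraries alone called 6815, 3399 higher and 3416 lower. In 54.3% of tested genes the 3 HET and 3 WT libraries did not overlap. At least 4-fold, 424 genes were higher and 936 lower, and at least 32-fold, 53 were higher and 144 lower. At each of these folds more genes were lower than higher. Without HET library 2, 9969 genes (65.2%) passed, 19.8% of all tested genes with at least a 2-fold change. Of the 8910, 8395 kept their call, 515 lost it and 0 changed direction, and of the 2878 changed by at least 2-fold, 2770 kept their call. Across all 16 alternative settings, 5404 of the 8910 and 2261 of the 2878 stayed called in the same direction.

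The genes with the largest increases were well expressed in HET and near 0 in WT. Ranked here are genes with at least 10 CPM in the higher group, groups that did not overlap and a call that held without HET library 2, leaving out predicted genes and pseudogenes. Fam111a, which encodes a protease that restricts viral replication (chromosome 19, 12545740 to 12589768), was at 0.0467, 0.139 and 0.0935 CPM in WT and 196, 178 and 207 CPM in HET. Col1a2, the alpha-2 chain of type I collagen (chromosome 6, 4504814 to 4541544), was at 0.14, 0.464 and 0.327 CPM in WT and 517, 447 and 504 CPM in HET. The fitted log2 differences of these genes were 10.95 ± 0.41 and 10.60 ± 0.35. Type I collagen joins 2 alpha-1 chains to 1 alpha-2 chain. Col1a1, the alpha-1 gene, was high in both groups, at 1053, 1010 and 950 CPM in WT and 1734, 1439 and 1656 CPM in HET. In KO cells Col1a2 was at 0.117 CPM, near its WT level, and Fam111a at 161 CPM, near its HET level. The 10 largest increases under these limits include Oas2 and Xist, described below. The others were the cathepsin inhibitor Ctla2a (0.139 to 41.9 CPM), the oxidase subunit Cybb (0.218 to 45.8 CPM), the neurite-promoting factor Nrn1 (0.109 to 10.2 CPM), the small heat shock protein Hspb7 (0.202 to 17.8 CPM), the somite transcription factor Dmrt2 (0.155 to 12.4 CPM) and the noradrenaline transporter Slc6a2 (0.434 to 31.9 CPM).

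The largest decreases went the other way, from at least 10 CPM in WT, as the ranking requires, to means of at most 1.03 CPM in HET. Zic1, a transcription factor of neural and dorsal mesoderm tissue (chromosome 9, 91358058 to 91365810), was at 54.4, 52.5 and 49.8 CPM in WT and at 0, 0.0526 and 0.0901 CPM in HET. The HET libraries held 3 counts together, so that WT was 1081-fold higher with a 95% counting interval of 370 to 5246. The secreted protein Lgi2 (chromosome 5, 52533517 to 52566462) had the highest WT level of these genes. It fell from 185, 175 and 170 CPM to 1.01, 1.37 and 0.721 CPM, a log2 difference of -7.43 ± 0.18. Also among the 10 largest decreases under the same limits, which leave out the pseudogene Rps4l, were the cytokine Il19 (28.1 to 0.0829 CPM), the lipid flippase Atp9a (11.6 to 0.0319 CPM), the heparin-binding growth factor Mdk (27.6 to 0.114 CPM), the amyloid precursor-like protein Aplp1 (21.8 to 0.0939 CPM), the vesicle-fusion regulator Stxbp6 (55.5 to 0.317 CPM), the Ras-association protein Rassf4 (52.1 to 0.308 CPM), Fam213b (25.3 to 0.0936 CPM) and Ccdc149 (10.3 to 0.0795 CPM). For each of these 10 genes every HET library lay below every WT library, as the rule that chose them requires.

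Ranked by mRNA amount and not by fold, under the same limits, other genes lead. Saa3, an acute-phase protein of the serum amyloid A family, was the most abundant mRNA gained, at 5684, 6790 and 7602 CPM in WT and 10748, 17074 and 10987 CPM in HET. Its log2 difference was 0.95 ± 0.14, and 0.70 without HET library 2, the highest of the 6. The interstitial collagenase Mmp13 rose from 999, 1020 and 989 CPM to 4071, 4289 and 4127 CPM, with the 3 libraries of each group close together. Selenop, the secreted selenium carrier, rose from 96.4, 103 and 103 CPM to 2835, 3439 and 2897 CPM, a log2 difference of 4.92 ± 0.06. The other large gains in CPM were haptoglobin (Hp, 857 to 2299), ferritin heavy chain (Fth1, 4093 to 5445), the mitochondrial mt-Co1 (1340 to 2680), the glycoprotein Gpnmb (71.8 to 1148) and pyruvate kinase (Pkm, 1989 to 3071). Fth1 was at 4658, 6919 and 4757 CPM in HET libraries 1 to 3, and its log2 difference of 0.41 was 0.20 without HET library 2. It lost its call in a fit of the 6 libraries alone. Losses in CPM were led by Actb. Abundant genes whose groups overlapped, such as Rpl8 with means of 2293 and 1614 CPM, are not in this ranking. After it came the neutrophil chemokine Cxcl1 (1596 to 537), the desaturase Scd2 (1488 to 848), the pattern-recognition protein Ptx3 (708 to 121), the vitamin D hydroxylase Cyp24a1 (446 to 106), the RNA-binding protein Hnrnpa1 (610 to 282), Cfl1 and Fscn1.

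The direction of change depended on the chromosome a gene lies on. Over 9433 genes of at least 5 CPM, the median log2 level of each of 20 chromosomes in a WT library stayed within -0.03 and 0.031 of the WT mean, whereas in HET it ran from -0.299 on chromosome 19 to 0.513 on chromosome 18. On chromosome 18 the medians of HET libraries 1 to 3 were 0.546, 0.508 and 0.549, and 61.1% of its 383 tested genes were called higher. On chromosome 1 they were 0.414, 0.37 and 0.408, with 49.6% of 948 genes called higher. Chromosomes 12 and 11 followed, at 0.302 and 0.275 over the group. On chromosome 19 the medians were -0.289, -0.26 and -0.289, and 51.9% of 536 genes were called lower. On chromosome 4 they were -0.241, -0.199 and -0.234, with 47.7% of 966 genes called lower. HET library 2 moved with HET libraries 1 and 3 here, unlike in the comparison by gene length.

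The shift was even along some chromosomes and uneven along others. In blocks of about 50 neighbouring genes, all 5 blocks of chromosome 18 lay between 0.383 and 0.587. On chromosome 1 the 11 blocks ranged from 0.118 to 0.639. On chromosome 19 they ran from -0.576 to 0.276, on chromosome 11 from -0.361 to 0.77 and on chromosome 6 from -0.474 to 0.553. Other groups showed such shifts against the same 3 WT libraries too. WT cells at day 4 lay at 0.516 on chromosome 18 and 0.444 on chromosome 13, and KO cells at 0.405 on chromosome 18, 0.35 on chromosome 3 and -0.275 on chromosome 14. On chromosome 18, HET, KO and day 4 WT cells all lay above the WT libraries of day 14. DNA was not measured, and the genotype cannot be told apart from other differences between the cultures. With the chromosome medians set equal, a setting added after the data had been seen, 8173 genes passed, 1023 higher and 1757 lower by at least 2-fold. Some of the calls that this setting ended are given beside the genes concerned. Impact, Creb1, Hells, Hsd17b7, Ino80d and Kcnt2, which are not described further, also lost theirs.

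**Figure D3:**
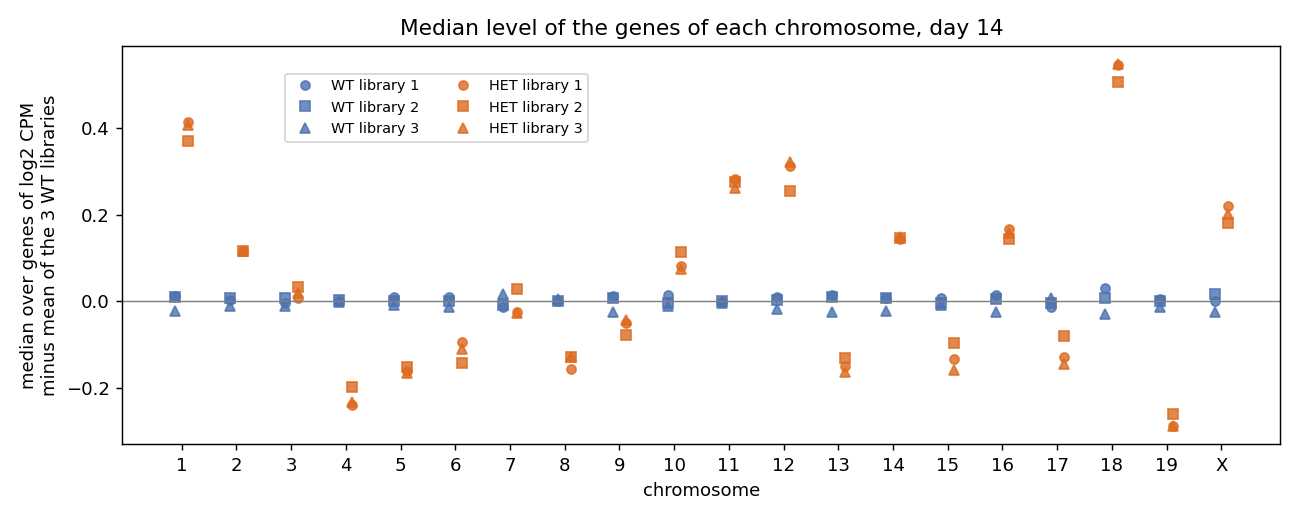
Median over genes of at least 5 CPM, for each chromosome (x axis), of the log2 CPM of each WT (blue) and HET (orange) library minus the mean of the WT libraries (y axis). WT points stay within -0.03 and 0.031, and the 3 HET points of a chromosome lie together, from -0.299 for the group on chromosome 19 to 0.513 on chromosome 18.

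Genes next to Actb were more often lower than higher. Of 29 tested genes within 1 Mb of Actb, 16 were called lower, 5 of them by at least 2-fold, and 1 was called higher, with a median log2 difference of -0.23. On the whole of chromosome 5, 39.3% of tested genes were called lower and 11.5% higher. With the chromosome medians set equal, Radil, Rac1, Cyth3, Usp42 and Aimp2 lost their call as lower, and Eif2ak1 was called higher. The most abundant neighbours called lower were Fscn1, Rac1, a GTPase that drives actin branching (390 to 347 CPM), whose call ended with the chromosome medians set equal, and Kdelr2, a receptor of the secretory pathway (231 to 160 CPM). Ap5z1 was the neighbour called higher (31.5 to 38.4 CPM). The 5 past 2-fold were all under 2 CPM in both groups.

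Effector genes of the interferon response rose almost without exception. Interferons are cytokines of antiviral defence that act through transcription factors, among them Stat2 and Irf9, which bind the interferon-stimulated response element (ISRE) in the promoters of their target genes. Among effector genes, 27 of 29 tested were called higher, 22 by at least 2-fold, with a median log2 difference of 2.44 against -0.02 for all tested genes. Without HET library 2 the same number, 27, was called higher. The effectors together took 0.132%, 0.139% and 0.147% of counts in WT libraries 1 to 3 and 0.388%, 0.428% and 0.398% in HET libraries 1 to 3 (exact two-sided permutation p 0.1, the smallest that 3 against 3 libraries can give).

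The ISRE can be read in the promoter sequence of many of these genes. The motif searched was GAAA, any 2 bases and GAAA again, on either strand, in the window from 250 bases before to 50 after the gene start in RefSeq (GRCm38.p6). It was found in 11 of the 18 higher effector genes with a window in that table (61.1%), in 8 of 9 higher genes of the GBP and IRG families (88.9%) and in 406 of 10793 tested genes (3.76%). Among all tested members, whatever their direction, it was in 12 of 20 effectors (60%) and 9 of 10 GBP and IRG genes (90%). These shares thus describe the lists and not the direction of change. Of RNA sensors and interferon signalling genes, 3 of 12 higher members (25%) and 3 of 16 tested members (18.8%) held it. The following stretches, read 5′ to 3′ along the strand of the gene with the motif or its reverse complement in capitals, are shown because they belong to effector and GTPase genes whose values follow.
Isg15: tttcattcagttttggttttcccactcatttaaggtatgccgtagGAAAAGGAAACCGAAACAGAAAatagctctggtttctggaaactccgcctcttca
Ifit1: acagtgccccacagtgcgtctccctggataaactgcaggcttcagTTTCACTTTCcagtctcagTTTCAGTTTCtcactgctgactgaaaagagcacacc
Rsad2: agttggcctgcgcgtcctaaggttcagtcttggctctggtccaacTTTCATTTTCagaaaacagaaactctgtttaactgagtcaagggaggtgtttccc
Oas3: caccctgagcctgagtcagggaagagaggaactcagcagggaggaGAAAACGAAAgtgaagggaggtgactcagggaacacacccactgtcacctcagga
Irgm1: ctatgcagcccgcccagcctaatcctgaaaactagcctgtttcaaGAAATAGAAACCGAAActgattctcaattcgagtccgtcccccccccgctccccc
Igtp: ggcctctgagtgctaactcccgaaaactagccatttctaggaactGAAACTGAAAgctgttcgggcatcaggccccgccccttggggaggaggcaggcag
They lie at chr4:156200842-156200941 (minus strand) for Isg15, chr19:34640740-34640839 (plus) for Ifit1, chr12:26456518-26456617 (minus) for Rsad2, chr5:120777680-120777779 (minus) for Oas3, chr11:48871396-48871495 (minus) for Irgm1 and chr11:58199477-58199576 (plus) for Igtp. Isg15 holds 3 overlapping matches, Ifit1 2 separate ones and Irgm1 2 overlapping ones. Such a match describes the sequence and does not show that a factor binds there.

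Some effectors that were low in WT rose strongly. Oas2, one of the 2'-5' oligoadenylate synthetases that activate RNA decay (chromosome 5, 120730333 to 120749853), was at 0.934, 0.974 and 0.701 CPM in WT and 234, 165 and 237 CPM in HET, a log2 difference of 7.92 ± 0.26. Its neighbour Oas3 (chromosome 5, 120753098 to 120777661) was at 9.57, 8.40 and 8.41 CPM in WT and 150, 112 and 147 CPM in HET. Trim30a (chromosome 7, 104409025 to 104465193) rose from 2.24, 1.58 and 1.59 CPM to 115, 101 and 111 CPM. In all 3 the WT libraries lay close together and far below the HET libraries. Ifit1 and Rsad2, which block viral RNA translation and replication, rose from 34.2, 39.7 and 37.9 CPM to 174, 212 and 180 CPM and from 12.9, 10.0 and 10.9 CPM to 59.2, 63.6 and 61.5 CPM. Isg15, a ubiquitin-like modifier, rose by less, from 81.1, 107 and 116 CPM to 156, 238 and 153 CPM, with a log2 difference of 0.85 ± 0.14. Isg15 is a short gene and HET library 2 was its highest, and without that library its difference was 0.61. The 2 effectors called lower were Ifitm1 (10.7 to 6.86 CPM) and Slfn5, which had 12 counts in WT and 3 in HET and lost its call in 10 of the 16 alternative settings.

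**Figure D4:**
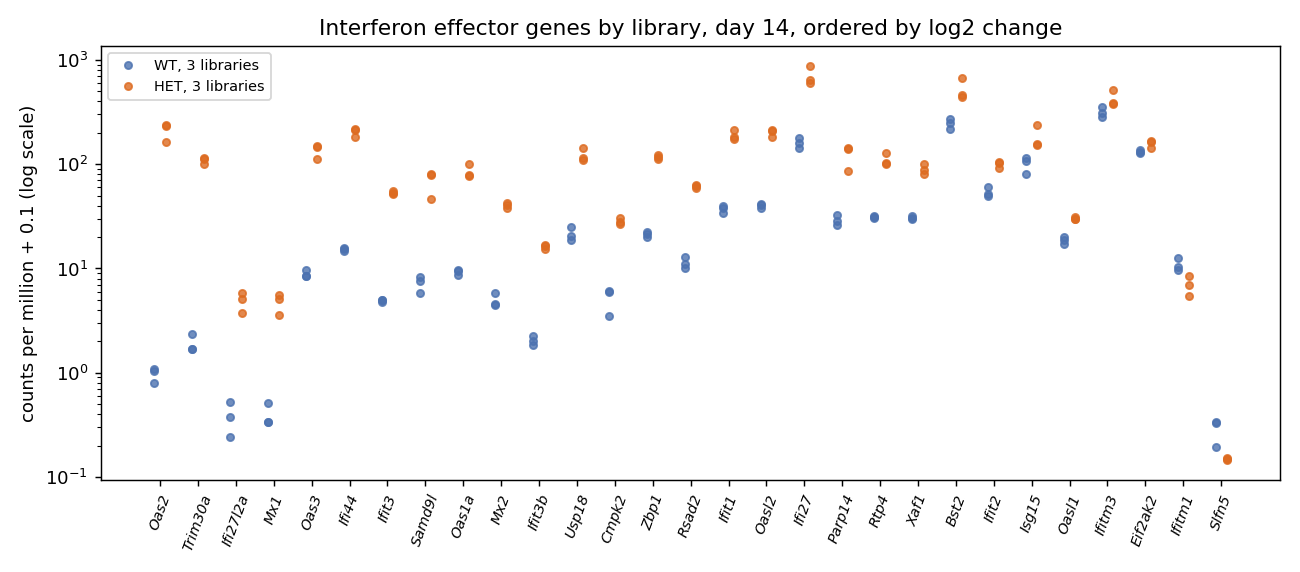
CPM plus 0.1 (y axis, log scale) of the 29 tested interferon effector genes (x axis, ordered by log2 difference) in 3 WT (blue) and 3 HET (orange) libraries. For the genes from Oas2 to Xaf1 every HET point lies well above every WT point, and only Ifitm1 and Slfn5 were called lower.

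The sensors and transcription factors upstream of the effectors rose less. Of 19 tested, 15 were called higher and 6 of them by at least 2-fold, the other 4 did not pass, and the median was 0.64. Without HET library 2, 15 were higher and 1 lower. Stat2 rose from 105, 103 and 102 CPM to 349, 292 and 345 CPM and Irf7 from 47.3, 51.8 and 56.3 CPM to 139, 152 and 149 CPM. Irf9, the DNA-binding partner of Stat2, rose by 0.77 ± 0.05. The cytosolic DNA pathway adaptor Tmem173 (STING, chromosome 18) rose from 21.2 to 108 CPM and the RNA helicase Dhx58 from 22 to 101 CPM. The receptors and early signal components Ifnar1, Irf3, Mavs and Jak1 did not pass the test, at 86.6 and 92.9, 34.5 and 33.9, 41.5 and 39.1 and 150 and 135 CPM in WT and HET. The interferon gene Ifnb1 had 1 count in WT and 3 in HET. With so few counts, a difference in Ifnb1 was not detectable at this depth.

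Guanylate-binding proteins and immunity-related GTPases, which attack vacuoles of intracellular pathogens, moved in the same direction: 15 of 16 tested were called higher, 13 by at least 2-fold, with a median of 1.64. Igtp rose from 22.3, 24.4 and 21.8 CPM to 68.1, 77.7 and 65.9 CPM, Irgm1 from 37.7, 37.9 and 34.0 CPM to 92.2, 87.4 and 92.5 CPM, and Iigp1 (chromosome 18) from 3.18 to 45.2 CPM. Gbp2 was the member called lower, from 56.5 to 38.1 CPM. Tgtp1 had 0 counts in WT and 41 in HET, at least 14.2-fold higher when WT is given the 3 counts that a count of 0 allows over the group. Members of these families resemble each other in sequence, and how the authors' counting treated shared reads is not given in the sources used here, so single members are less certain than the list. In MHC class I presentation, 9 of 17 rose and 2 fell. H2-K1 rose from 459, 502 and 530 CPM to 1319, 1675 and 1303 CPM, H2-T23 from 16.8 to 169 CPM and the shared light chain B2m from 1318 to 1931 CPM. The immunoproteasome subunits Psmb8 and Psmb9 were at 139 and 61.0 CPM in WT and 139 and 55.1 CPM in HET and did not pass. Without HET library 2, 5 members were called lower in place of 2.

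Macrophages, whose own genes include several of those above, had low marker levels in both groups. Of 8 macrophage markers 3 had enough counts to test. Their sum was 8.74 to 9.10 CPM in WT and 7.57 to 7.94 CPM in HET, most of it from Cd68, which many cell types express. Cybb, the phagocyte oxidase subunit that rose from 0.218 to 45.8 CPM, is 1 gene of the phagocyte oxidase, and its source among the cells was not tested. Of the other oxidase genes, Ncf4 fell from 5.50 to 0.815 CPM and Cyba from 268 to 150 CPM.

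Secreted inflammatory mediators split by class. Complement and acute-phase genes rose (13 of 18 higher, 3 lower, median 0.72), whereas cytokines and their receptors mostly fell (4 of 22 higher, 15 lower, median -0.91). Complement factor B, Cfb, of the alternative pathway rose from 6.02, 5.24 and 4.49 CPM to 58.4, 41.6 and 58.9 CPM. C3, the central component, rose from a mean of 1136 to 1668 CPM. Saa1 and Saa2 rose from 2.42 to 35.9 and from 2.74 to 35.7 CPM, but these near-identical copies can share reads. On the falling side, Il6 went from 117, 128 and 122 CPM to 39.5, 57.9 and 41.7 CPM and the alarmin Il33 from 80.1, 82.1 and 78.8 CPM to 7.76, 9.41 and 10.4 CPM. Tnfsf11 (RANKL), the osteoblast signal that drives osteoclast formation, fell from 55.5, 58.1 and 57.0 CPM to 13.0, 14.5 and 11.8 CPM. The receptor antagonist Il1rn rose from 1.07 to 12.3 CPM, while Il1a and Il1b fell from 6.93 to 0.713 and from 0.730 to 0.130 CPM. Chemokines took 0.487%, 0.534% and 0.533% of counts in WT and 0.299%, 0.384% and 0.302% in HET (exact two-sided permutation p 0.1). Of 18, 3 rose and 8 fell. Cxcl1 carried most of the loss, and Cxcl2, of the same cluster on chromosome 5, rose from 4.4 to 43.0 CPM. Cxcl10, a classical interferon target, was at 70.3 CPM in both groups.

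The labelled osteoblast identity was checked against its markers. Late osteoblast markers were near 0 in both groups. Sp7, the transcription factor required for osteoblast maturation, had 4 counts in WT and 0 in HET. Bglap (osteocalcin), Ibsp and Dmp1 had at most 10 counts in either group. Of 10 markers 6 could be tested, 4 higher and 1 lower. Their sum was 2541 to 2663 CPM in WT and 3160 to 3386 CPM in HET, most of it from Spp1 and Col1a1, which fibroblasts express too. Runx2, the early bone regulator, rose from 21.8, 21.0 and 18.9 CPM to 31.7, 27.0 and 33.1 CPM.

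Of genes that set the level of phosphate and pyrophosphate outside the cell, 1 fell and 2 rose strongly. Alpl, the alkaline phosphatase that frees phosphate for mineral and is the standard early osteoblast marker (chromosome 4, 137741733 to 137796384), was at 132, 118 and 133 CPM in WT and 8.10, 8.52 and 8.25 CPM in HET, a log2 difference of -3.95 ± 0.08. Enpp1 and Ank, which make and export pyrophosphate, an inhibitor of mineral growth, rose from 12.6, 11.7 and 12.3 CPM to 81.9, 56.1 and 80.1 CPM and from 17.6, 18.6 and 19.2 CPM to 48.9, 49.4 and 55.2 CPM. Fam20c, the kinase of secreted bone proteins, fell from 78.6 to 28.6 CPM. Over the list of 14 tested mineralization and bone matrix genes the direction was mixed, with 6 higher and 4 lower. Spp1 (osteopontin), at 1461 and 1587 CPM, did not pass the test. Sparc rose from 1409 to 1803 CPM, a call that ended with the chromosome medians set equal. Whether mineral formed was not measured by these libraries.

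Transcription factors of the osteoblast lineage mostly fell: 11 of 18 were lower, 9 by at least 2-fold, and 4 higher, with a median of -1.03. Among those above 5 CPM, Osr1 fell from 20.3 to 3.26 CPM, Tcf7 from 26.7 to 6.42 CPM, Runx3 from 36.8 to 15.1 CPM and Twist1 from 34.3 to 20 CPM. Dlx5 and Dlx6, which act with Runx2, were under 1 CPM in both groups, with 16 and 48 counts in WT and 1 each in HET. Bhlhe40 rose by 1.21 ± 0.07. Of cartilage genes 5 of 11 rose and 4 fell. Sox9, the regulator of cartilage fate, rose from 1.68, 1.53 and 2.1 CPM to 20.2, 20.1 and 20 CPM, a log2 difference of 3.50 ± 0.16. Among its known targets in cartilage matrix, Col2a1 fell from 1.57 to 0.275 CPM, Acan had 4 counts in WT and 1 in HET, and Col11a1 had 119 and 1. Col9a3 and Col11a2 rose, from 2.16 to 7.29 and from 7.86 to 13.8 CPM. Of fat genes 3 of 13 rose and 5 fell, and 5 were called higher with a correction for gene length and GC content. The adipocyte marker sum went from between 14.5 and 18.1 CPM in WT to between 223 and 346 CPM in HET, carried by the fatty acid carrier Fabp4 (13.7 to 262 CPM). Adipoq had 0 counts in both groups, Plin1 4 and 3 counts, and Pparg was at 1.91 and 1.80 CPM.

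Collagen mRNA took a larger share of counts in HET, while individual chains went both ways. Collagens and their modifying enzymes took 0.5%, 0.468% and 0.450% of counts in WT and 0.763%, 0.620% and 0.748% in HET (exact two-sided permutation p 0.1). Of 30 genes 16 rose and 10 fell. Among fibrillar chains, besides Col1a2, Col3a1 rose from 74.2, 75.7 and 69.3 CPM to 450, 428 and 444 CPM. The basement membrane chains Col4a1 and Col4a2, which lie head to head on chromosome 8, rose together, from 388, 350 and 339 CPM to 1061, 810 and 1025 CPM and from 302, 270 and 251 CPM to 899, 695 and 869 CPM. Lox, which crosslinks collagen and elastin (chromosome 18), rose from 62.1 to 275 CPM. The short-chain network collagens fell, Col8a1 from 206, 202 and 200 CPM to 44.2, 38.3 and 43.7 CPM and Col8a2 from 5.87 to 0.139 CPM. Col5a3, Col7a1 and Col16a1 fell by 1.95, 1.49 and 1.27 on the log2 scale, and Serpinh1, the collagen chaperone, by 0.24.

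Matrix-degrading enzymes and their inhibitors took more of the counts in HET than in WT in every library. Proteases and their inhibitors took 0.304%, 0.291% and 0.281% of counts in WT and 0.727%, 0.699% and 0.734% in HET (exact two-sided permutation p 0.1). Mmp13 made up most of the gain: the difference between HET and WT was 0.428 percentage points, and 0.135 without the 20 most abundant genes, of which Mmp13 is one. By number of genes the list was balanced, with 11 of 30 higher and 12 lower. The collagenases Mmp13 and Mmp8, the gelatinase Mmp2, the membrane protease Mmp14, which activates it, and the stromelysin Mmp3 were all higher. Mmp2 rose from 352, 336 and 318 CPM to 1295, 1151 and 1279 CPM, Mmp14 from 126, 123 and 131 CPM to 466, 470 and 473 CPM and Mmp3 from 35.3 to 133 CPM. The lysosomal collagenase Ctsk rose from 1.63 to 24.7 CPM. Mmp9 fell from 11.1, 8.54 and 10.1 CPM to 0.192, 0.578 and 0.631 CPM, and the procollagen peptidase Adamts2 from 73.3 to 12.8 CPM. Of the inhibitors, Timp3 fell from 36.9 to 7.79 CPM, Timp1 was at 109 and 111 CPM and did not pass, and Timp2 rose from 514 to 658 CPM, a call that ended with the chromosome medians set equal.

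Other parts of the matrix and its receptors changed member by member. Of 26 proteoglycans and glycoproteins 12 rose and 9 fell. Biglycan, Bgn, which binds collagen fibrils, rose from 96.1, 88.6 and 83.8 CPM to 527, 437 and 542 CPM. Tenascin C, Tnc, fell from 46.4 to 17.2 CPM and the elastic fibre protein Fbln5 from 14.3 to 2.29 CPM. Fn1 was at 620 and 773 CPM and did not pass, though it was called higher without HET library 2. Of 29 integrin and laminin genes 12 rose and 9 fell. Itgb8 rose from 9.06, 5.94 and 6.78 CPM to 66.9, 43.3 and 64.6 CPM. Itgb1, the partner of most matrix-binding integrins, was at 592 and 626 CPM and did not pass. The mesenchymal cadherin Cdh11 fell from 33.3 to 11.8 CPM. Of 17 fibroblast and mesenchymal genes 11 rose and 3 fell, with Ly6a (Sca-1) going from 24.3, 31.3 and 30.8 CPM to 466, 616 and 467 CPM, Ly6c1 from 4.91 to 118 CPM and Pdgfra from 43.3 to 88.3 CPM. Prrx2 fell from 41.4 to 10.1 CPM. With the correction for gene length and GC content 5 genes of this list were called lower. Ly6a is also an interferon target. The sum of 10 fibroblast markers was 2858 to 3092 CPM in WT and 4451 to 5045 CPM in HET.

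Genes of position and embryonic patterning went both ways. Of the Hox genes 37.5% were higher and 34.4% lower, against 28.3% and 29.9% of all tested genes, and by at least 2-fold 6.25% were higher and 21.9% lower, against 7.33% and 11.5%. Of 32 Hox genes 12 rose and 11 fell, and of 41 other patterning factors 17 rose and 18 fell, 15 of the latter by at least 2-fold against 11.5% of all tested genes. Further Zic genes were lower too: Zic2 and its chromosome 14 neighbour Zic5 fell from 14.3 to 0.170 and from 15.3 to 0.131 CPM, and Zic4, next to Zic1 in the genome, had 221 counts in WT and 1 in HET. Foxf1, a factor of splanchnic mesoderm, fell from 71.7, 62.8 and 63.9 CPM to 3.93, 5.99 and 4.24 CPM. Pax3, of somites and neural crest, rose from 30.5, 28.2 and 33.0 CPM to 82.9, 80.1 and 81.5 CPM, and Meis2 from 5.93 to 23.9 CPM. Within Hox, the posterior genes Hoxc10 and Hoxb13 rose from 5.41, 4.64 and 5.66 CPM to 31.8, 34.7 and 29.4 CPM and from 28.6, 33.4 and 36.3 CPM to 79.7, 119 and 83.4 CPM. Among anterior genes Hoxc4, Hoxa2 and Hoxa3 fell by 2.45, 2.39 and 1.77, and Hoxb4 rose by 0.90. Hoxd8 had 140 counts in WT and 1 in HET.

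Signalling genes that act between cells were more often lower than higher. In the Wnt pathway, which promotes bone formation, 23 of 38 were lower, 21 by at least 2-fold, and 7 higher, with a median of -1.22. Most ligands were low in both groups. Wnt10a fell from 6.39, 5.89 and 6.96 CPM to 0.479, 0.526 and 0.180 CPM, Wnt6 from a mean of 6.90 to 0.889 CPM, Wnt10b from 4.92 to 0.891 CPM and Wnt4 from 5.03 to 1.14 CPM. Among receptors and coreceptors, Lrp5 fell from 166 to 92.9 CPM and Fzd4 from 5.39 to 1.26 CPM, while Fzd1 and Fzd7 rose from 60.7 to 86.5 and from 21.9 to 38.2 CPM. Secreted modulators went both ways: Sfrp2 fell from 9.71 to 1.22 CPM and Rspo3 from 30.3 to 13.0 CPM, and Dkk3 rose from 7.24, 6.26 and 5.42 CPM to 65.7, 57.1 and 66.1 CPM. The pathway target Axin2 fell from 0.823 to 0.162 CPM, low levels in both groups. In Hedgehog and Notch signalling 12 of 21 fell and 2 rose, with Smo and Ptch1, the signal transducer and receptor of Hedgehog, falling by 0.75 and 0.90 and Notch1 and its ligand Jag2 by 1.30 and 2.41. Gli2 and Hes1 rose by 1.36 and 1.38. Without HET library 2, 4 members were called higher.

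In BMP and TGF-beta signalling 11 of 33 rose and 10 fell, near the share of all tested genes. The activin inhibitor Fst fell from 46.9, 50.4 and 52.3 CPM to 4.12, 3.68 and 3.61 CPM, the BMP inhibitor Grem1 from 263 to 99.6 CPM and the ligand Bmp4 from 40.3 to 10.6 CPM. Bmpr1b had 153 counts in WT and 0 in HET, at least 49.2-fold lower when HET is given the 3 counts that a count of 0 allows over the group. The matrix reservoir protein Ltbp2 rose from 13.8 to 51.7 CPM. Of 16 genes of the IGF axis 5 rose and 5 fell, or 8 and 5 without HET library 2. The growth factor Igf2 fell from 16.7, 16.7 and 17.6 CPM to 0.431, 0.210 and 0.135 CPM and Igfbp5 from 40.8, 34.7 and 29.2 CPM to 3.74, 2.31 and 4.24 CPM, and the receptor Igf1r rose from 8.75 to 17.6 CPM. Other imprinted genes also fell, among them Cdkn1c from 21.7 to 6.11 CPM, with 8 of 18 lower and 5 higher, or 8 and 8 without HET library 2. With the chromosome medians set equal, or in a fit of the 6 libraries alone, 3 imprinted genes were called higher. Of 36 FGF, PDGF and EGF genes 12 rose and 17 fell. The receptor Fgfr1 rose from 200 to 451 CPM and the ligand Kitl from 296 to 644 CPM, while the EGF-type ligands Tgfa, Areg and Ereg fell by 2.31, 1.74 and 1.46.

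Guidance molecules, which steer migrating cells and axons through actin, were mostly lower: 27 of 43 semaphorin, ephrin, Slit, netrin and receptor genes fell, 17 by at least 2-fold, and 7 rose, with a median of -0.85. The Slit receptor Robo1 fell from 49.5, 36.1 and 38.0 CPM to 0.958, 0.158 and 0.541 CPM, and its ligand Slit2 from 59.0, 49.1 and 43.0 CPM to 14.0, 9.62 and 13.9 CPM. Sema3c and Sema3a fell from 195, 188 and 173 CPM to 22.4, 21.1 and 22.8 CPM and from 33.6 to 2.67 CPM. Their coreceptor Nrp2 (chromosome 1) rose from 223, 186 and 175 CPM to 631, 391 and 620 CPM, and Nrp1 rose by 0.73. Of 30 ion channels 16 fell and 4 rose, with a median of -0.85. The calcium-permeable channel Trpv4 fell from 13.4 to 1.62 CPM and the calcium channel subunit Cacna1a from 25.3 to 3.25 CPM. The stretch-activated channel Piezo1 was at 177 and 140 CPM and did not pass.

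Sterol and fatty acid synthesis were lower as groups. Of 24 genes of cholesterol synthesis and its control 18 fell and 4 rose, and their share of counts went from 0.738%, 0.722% and 0.705% in WT to 0.501%, 0.468% and 0.496% in HET (exact two-sided permutation p 0.1). Hmgcs1, the first committed enzyme (chromosome 13, 119690379 to 119708260), fell from 542, 571 and 552 CPM to 311, 321 and 301 CPM. Squalene epoxidase, Sqle, a rate-limiting step, rose from 598, 579 and 577 CPM to 729, 705 and 725 CPM. The call of Stard4 as higher ended with the chromosome medians set equal. Of 17 fatty acid genes 13 fell and 1 rose, with a median of -0.72, and without HET library 2 12 fell and 3 rose. Desaturases fell (Scd1 from 350 to 173 CPM, Fads1 from 580 to 310 CPM), and the synthase Fasn and carboxylase Acaca, at 471 and 514 CPM and at 72 and 76.3 CPM, did not pass. The sterol element TCACNCCAC was in 1 of 13 promoter windows of the lower cholesterol genes (7.69%) and in 1.41% of windows of tested genes.

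Lysosomal genes rose together by moderate amounts. Of 32 tested 25 were higher, 5 by at least 2-fold, and 5 lower, with a median of 0.54 with and without HET library 2. The abundant members Psap, Ctsb and Npc2, a saposin precursor, a protease and a cholesterol carrier, rose by 0.60 ± 0.05, 0.87 ± 0.04 and 0.99 ± 0.08. Ctsb was at 784, 761 and 761 CPM in WT and 1405, 1382 and 1420 CPM in HET. The legumain protease Lgmn rose from 123 to 347 CPM, Ctsh fell from 9.63 to 1.72 CPM, and the lysosomal transcription factor Tfeb was at 23.5 and 23.1 CPM and did not pass. In glycolysis and the hypoxia response 19 of 33 rose and 10 fell. Aldoa rose from 394, 421 and 434 CPM to 803, 995 and 842 CPM and Ldha from 791 to 1269 CPM, whereas the lactate exporter Slc16a3 fell from 76.5 to 6.54 CPM and Ldhb, the other lactate dehydrogenase subunit, from 102 to 11.3 CPM. Of 12 tested mitochondrially encoded genes in the list 10 rose. All 37 genes of the mitochondrial chromosome together took 0.529%, 0.484% and 0.542% of counts in WT and 0.781%, 0.729% and 0.851% in HET (exact two-sided permutation p 0.1). The difference in their share was 0.268 percentage points, and 0.159 without the 20 most abundant genes, which include mt-Co1. In bulk RNA, fewer cells of a type and less RNA per cell cannot be told apart.

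Genes known to respond to the drugs in the medium differed between the groups. Of 20 glucocorticoid-responsive genes 10 rose and 6 fell, with a median of 0.46. Tsc22d3 (GILZ), a direct target of the receptor, rose from 42.5, 51.4 and 50 CPM to 164, 202 and 158 CPM, Fkbp5 from 128, 131 and 125 CPM to 231, 236 and 222 CPM and Klf9 from 41.6 to 95 CPM. The receptor gene Nr3c1 (chromosome 18) rose from 49.3, 39.8 and 38.1 CPM to 84.4, 62.4 and 84.2 CPM. Per1 and Dusp1, which dexamethasone also induces, were at 57.4 and 59.3 and at 91.2 and 93.9 CPM and did not pass. Cebpd fell from 426 to 232 CPM. Of 20 genes of the cyclic AMP response, which forskolin triggers, 13 fell and 5 rose, with a median of -0.41. The early response genes Nr4a1, Nr4a2 and Fosb fell by 1.03, 1.07 and 1.03, and Dio2 from 3.76 to 0.112 CPM. Sik1 rose by 0.92. These counts changed with the setting: 7 fell in a fit of the 6 libraries alone, and 2 rose with the chromosome medians set equal.

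Proliferation genes were near the background. Of 40 genes of the cell cycle and replication 14 rose and 12 fell, 1 rose by at least 2-fold, and the median was -0.01. Mki67 was at 211, 185 and 164 CPM in WT and 235, 152 and 226 CPM in HET, and the groups overlapped. The member past 2-fold was cyclin E1, Ccne1, from 34.5, 30.2 and 30.2 CPM to 81.5, 92.0 and 79.9 CPM. Of 25 CDK inhibitors and p53 targets 11 rose and 9 fell, 1 and 4 of them by at least 2-fold. Cdkn1a (p21) and Mdm2 rose by 0.89 and 0.80, and Perp, Eda2r and Trp53 fell by 1.88, 1.73 and 0.61. Among chromatin genes, of which the BAF and INO80 remodelling complexes contain actin, 9 of 35 rose and 14 fell, 1 of them by at least 2-fold. Dpf1 was that gene (9.10 to 2.38 CPM). The ATPase Smarca4 was at 296 and 325 CPM, called higher by 0.13, and 9 complex members were called lower in a fit of the 6 libraries alone and with the chromosome medians set equal. Of the clustered histone genes, 8 of 13 were higher, all 8 by at least 2-fold, with a median of 1.84, and 5 were called higher under a filter of 1 CPM in 3 libraries. Hist1h1c rose from 20.4, 23.2 and 22.9 CPM to 74.0, 96.4 and 67.6 CPM and Hist1h2bc from 2.16 to 26.6 CPM. The other 6 that rose were under 3 CPM. Most histone mRNAs lack a poly(A) tail, and those seen here are the fraction that the library preparation captured.

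The sex chromosomes differed as well. Xist, the RNA that silences 1 X chromosome in female cells (X chromosome, 103460366 to 103483254), was at 195, 101 and 191 CPM in HET, and the 3 WT libraries held 3 counts together. HET was 3534-fold higher with a 95% counting interval of 1209 to 17139. None of 8 genes in the Y-linked list had over 2 counts in either group. The 1 tested gene that the annotation places on the Y chromosome, the predicted Gm47283, was at 34.7, 36.9 and 41.0 CPM in WT and 22, 27.0 and 19.6 CPM in HET, and was named after its values were seen. Whether its reads came from the Y chromosome was not tested. Of 10 genes of X inactivation or known to escape it, 7 were called higher and the other 3 did not pass. The demethylase Kdm6a rose from 29.8, 27.3 and 24.4 CPM to 58.3, 47.8 and 55.3 CPM, Utp14a by 0.65 and Ddx3x by 0.40. Kdm5c was at 113, 100 and 86.2 CPM in WT and 163, 100.0 and 164 CPM in HET, and HET library 2 lay within the WT range. Over the X chromosome the median was 0.215. KO cells, with 0.0152 CPM of Xist, resembled WT in this gene. The groups thus differ in Xist as well as in Actb, and the part of this difference in the other results was not tested.

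Markers of other cell types were mostly low in both groups. Of 8 endothelial markers 5 could be tested and 2 fell, and their sum went from between 27.7 and 33.7 CPM in WT to between 9.69 and 10.2 CPM in HET, most of it Egfl7. Neural and glial markers summed to 126 to 134 CPM in WT and 66.9 to 75.1 CPM in HET, nearly all from nestin (Nes, 121 to 66.7 CPM), with Sox10 at 0 counts in HET. Epithelial markers summed to 3.50 to 5.37 and 1.85 to 3.79 CPM and skeletal muscle markers to 13.3 to 16.8 and 15.6 to 18.7 CPM, mostly Des. Smooth muscle markers summed to 71.1 to 80.4 CPM in WT and 118 to 132 CPM in HET, with Acta2 the largest member. By number of genes they did not rise together: of 7 tested 2 rose and 3 fell. In the wider list of 16 smooth muscle and contractile genes 3 rose and 7 fell, with a median of -0.12. Chondrocyte markers summed to 10.9 to 14.1 and 34.0 to 35.9 CPM, carried by Sox9. Of genes often used as references, Tbp was at 39.2 and 38.9 CPM, Hprt at 158 and 169 CPM and Ppia at 575 and 590 CPM, none of which passed the test, and Gapdh rose from 175 to 262 CPM.

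**Figure D5:**
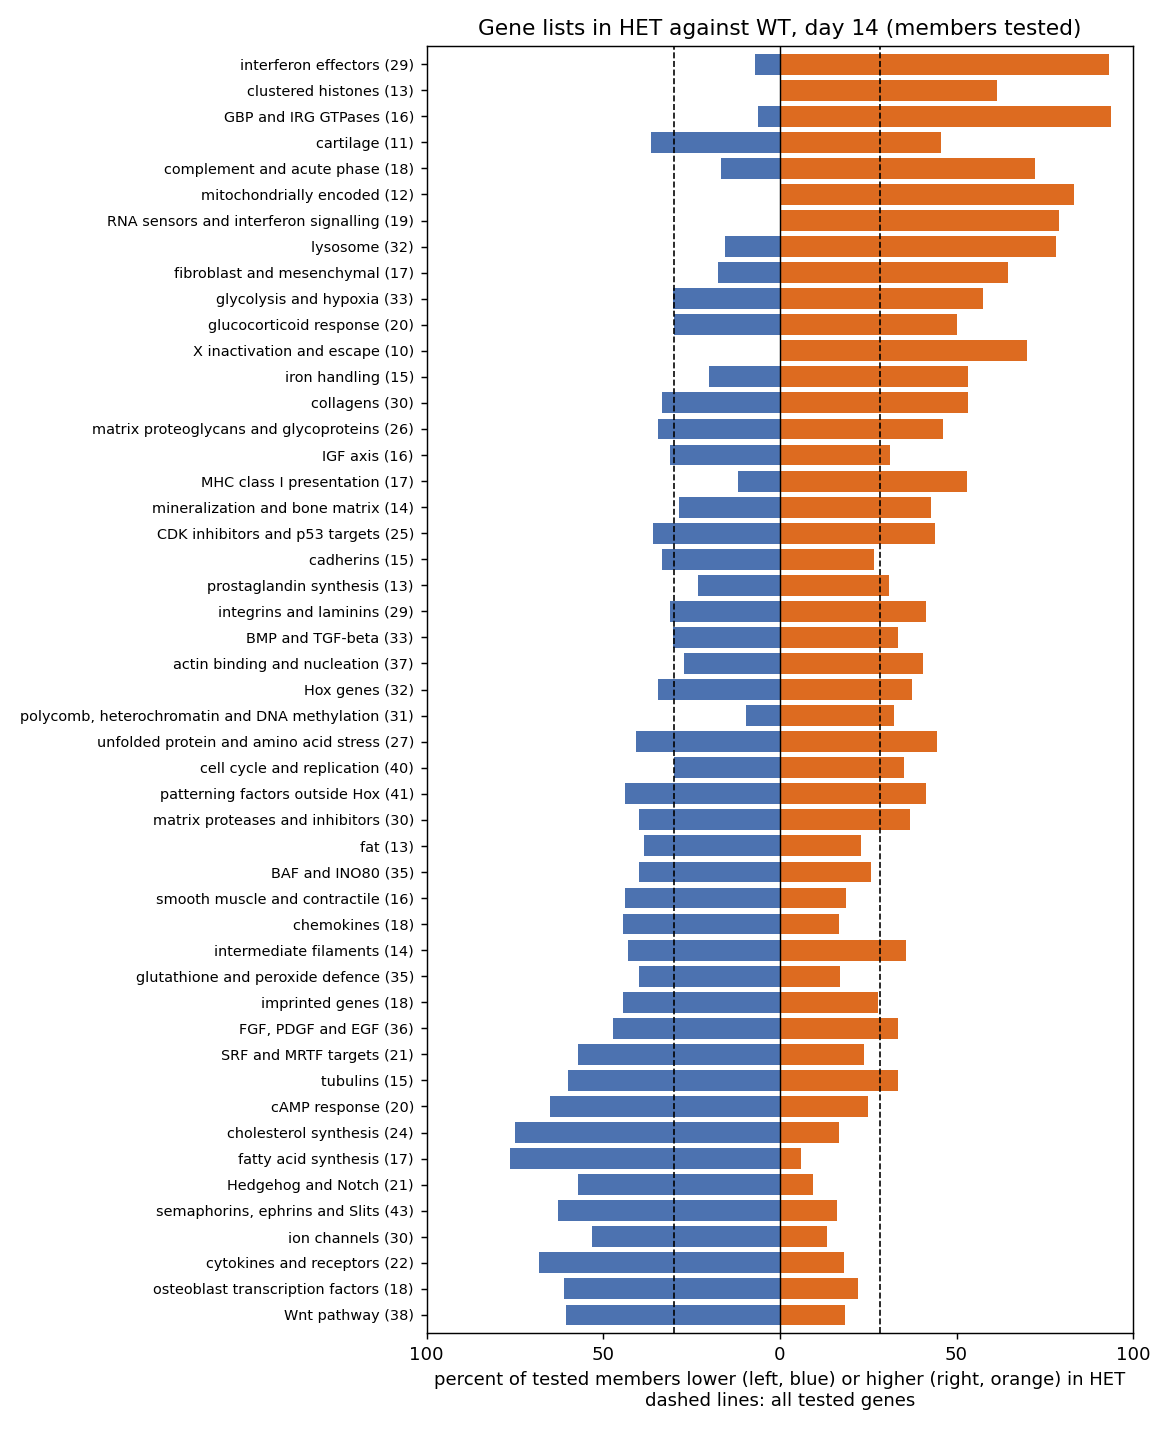
Percent of the tested members of each gene list called higher (right, orange) or lower (left, blue) in HET, for lists with at least 10 tested members (number in brackets), ordered by median log2 difference. Dashed lines mark all tested genes at 28.3% higher and 29.9% lower, and the bars of interferon effectors reach 93.1% higher while those of fatty acid synthesis reach 76.5% lower.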

How the data were processed

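RNA from cultured mouse fibroblasts was sequenced after TruSeq v2 library preparation, a kit that does not mark strand, so overlapping antisense genes cannot be told apart. The authors deposited unnormalised read counts for each gene. TopHat2 2.1.0, HTSeq, DESeq2 and build GRCm38.p4 are named in the submitters' processing notes, and the strand setting of the counting is not given in the sources used here. Groups were read from the labels. GENCODE M21 (GRCm38) gave symbols and coordinates to 46091 of 46603 gene IDs, and the other 512 held 0.051% of counts.

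HET was compared with WT in edgeR 4.0.16 (R 4.3.3) with the robust quasi-likelihood test on all 15 libraries, so that 5 groups shared the spread, after filterByExpr and TMM scaling. P-values were adjusted by Benjamini-Hochberg over 15296 genes with a threshold of 0.05. The common biological coefficient of variation was 8.33%. CPM are read counts scaled by TMM library size to counts per M reads, log2 differences are HET over WT with the Wald SE of the fit, and counting intervals and floors cover counting error only. The code was tested on simulated data.

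The genes described, the 61 gene lists (1368 genes, 10 of the lists being cell type markers) and the comparison itself were chosen with earlier results of these data known. Lists are described by counts and medians, without a set test. Named by rule are the 6 actins, the 10 largest increases and decreases in fold and the 8 largest gains and losses in CPM (at least 10 CPM in the higher group, groups not overlapping, called also without HET library 2, no predicted genes or pseudogenes), up to 3 members per list and direction with at least 5 CPM, and a panel of known genes. Other members were named after their values were seen. Alternatives were DESeq2 1.42.0, RLE scaling, 2 filters, the 6 libraries alone, the replicate number as a block, spline offsets on gene length and GC share, each library left out, HET libraries 1 and 3 summed and, added after the data had been seen, chromosome medians set equal. Exact permutation tests were two-sided.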

Additional observations from a re-analysis of the deposited data

How the results depend on the processing

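The number of genes called stayed within 1.5 times that given above in all 16 alternative settings. It was 9136 with DESeq2, 6815 in a fit of the 6 libraries alone, 9433 with the length and GC correction, 8173 with chromosome medians set equal and 8120 to 9969 when 1 library was left out in turn. With the replicate number as a block it was 8783. The numbers did not pair the samples, since residuals of same-numbered HET and WT libraries correlated at 0.179, 0.07 and -0.15, and the block changed no call among the 305 named genes tested. Of those genes 282 kept direction and side of the threshold in every setting, and 13 lost their call with chromosome medians set equal. Reversals were limited to genes near 0: Hprt with the length and GC correction, without and with the block (-0.199 and -0.200), Ppia without HET library 2 (-0.098, with values up to 0.115 when another library was left out) and with chromosome medians set equal (-0.219), Smtn (0.211 and 0.212) and Spp1 (-0.129 and -0.130) under the same corrections as Hprt, and Stard4 with chromosome medians set equal (-0.054). Leaving out the 20 most abundant genes, which include Actb, turned the share of the 6 actins to 0.0533 percentage points higher in HET, and lowered the differences of matrix proteases from 0.428 to 0.135 and of mitochondrially encoded genes from 0.268 to 0.159. Of 1952 list counts 71 moved by over 1.5 times. At these depths genes under about 1 CPM rest on few counts.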

Other observations

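Several highly changed genes belong to no list. Rps2 and Rps18, which encode ribosomal proteins, rose from 33.0 to 983 CPM and from 81.8 to 511 CPM, while ribosomal protein genes as a class took 3.73%, 4.21% and 4.66% of counts in WT and 3.39%, 4.87% and 3.44% in HET (exact two-sided permutation p 0.6). Both genes have processed copies elsewhere in the genome that can take their reads, so their levels are uncertain. Epas1, the hypoxia-inducible factor 2 alpha, fell from 303, 249 and 235 CPM to 59.8, 37.0 and 56.4 CPM, and the transcription factors Klf13 and Mef2a rose from 29.7 to 202 CPM and from 52.6 to 223 CPM. Sp100, of nuclear bodies, rose from 1.57 to 49.6 CPM, and the protease inhibitor Serpina3n from 15.8 to 178 CPM. These genes were chosen after their values were seen.

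Genes with at least 5 CPM in 1 group and at most 3 counts in the other numbered 4 in each direction. Present in HET were B3gnt3, a glycosyltransferase (583 counts against 2 in WT), Ctla2b (321 against 3), the MHC class II peptide loader H2-DMb1 (536 against 3) and Xist. Present in WT were Zic1, Atp9a, the pseudogene Rps4l (835 counts against 1 in HET) and 1500009L16Rik (627 against 3).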
